A study of Rattus norvegicus with 24 samples.

Results

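The genes described here code for integrins and for the basement membrane laminins, nidogens and perlecan. They were chosen by gene symbol, with earlier results of these data known. Of 40 such genes, 22 had a named probe on the RatRef-12 BeadChip, among 13337 named genes in all, and each of the 22 had 1 probe. They were 17 integrin chains and 5 laminin chains. The other 18 genes, which include Itga3, Itga6, Itgav, Itgb2, Itgb3, Lamb1, Lama2 to Lama5, Nid1, Nid2 and Hspg2, were not analysed here. The 19 samples were 4 cadaveric livers, 4 preparations of hepatocytes fresh from collagenase perfusion, and 11 liver constructs, of which 4 were taken on day 2, 4 on day 15 and 3 on day 28. Cells and organs came from anesthetized and heparinized Sprague Dawley rats. The constructs were decellularized rat caudate lobes recellularized with Percoll-purified rat liver cells and perfused with medium containing 10% fetal bovine serum, 10 µg/mL insulin and 1 µM dexamethasone. The cadaveric livers and isolated hepatocytes had no time on the matrix or in this medium. In comparisons of constructs with them, matrix, medium with dexamethasone and time in culture cannot be told apart. The labels give rat hepatocytes as the cell type of every sample, cadaveric livers included, although these also carried macrophage, endothelial and stellate cell markers. No source names the animal behind each sample, so p-values reflect the spread among samples, which may be technical.

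Integrins are receptors made of 1 alpha and 1 beta chain that span the plasma membrane and tie the cytoskeleton to the extracellular matrix. The beta 1 chain pairs with many alpha chains, which set the ligand: alpha 1, 2, 10 and 11 bind collagen, alpha 3, 6 and 7 bind laminin, and alpha 5, 8, v and IIb recognize the RGD motif of fibronectin and other ligands. Laminins are trimers of an alpha, a beta and a gamma chain and form the sheet of the basement membrane together with collagen IV, nidogens and perlecan. In healthy liver a continuous basement membrane lines vessels and bile ducts, whereas the space between hepatocytes and sinusoids has none.

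Between 42.1% and 50.7% of probes were detected per array, and the lowest log2 intensity called detected was 4.86 to 5.23. Hepatocyte markers were detected on every array (6 of 7 had a probe, mean log2 level 11.6 to 12.9 over all samples). Of these 6, 3 were lower and 0 higher in day 28 constructs than in cadaveric liver. Over all probes, 25.7% were lower and 27.0% higher in that comparison. Means were 10.55 and 12.62 for Cps1 and 5.77 and 7.65 for Hnf4a, and Asgr1 had a log2 difference of -0.54. Alb (14.72 and 14.79) lay near the array maximum of 14.96. The 4 day 15 constructs did not form 1 group. Constructs 1 and 2 lay a root mean square log2 distance of 0.27 apart over 11583 probes and constructs 3 and 4 lay 0.28 apart, against 0.46 to 0.59 between those pairs. The day 15 results that follow are therefore given with the levels of each construct where a gene is described in full.

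The promoters of the integrin genes with the largest rises over culture, Itga8, Itga11 and Itga1, are shown with that of Lamc1, the member that fell. They are given 5′ to 3′ as in RefSeq for the GRCr8 assembly, 250 bases before to 50 after a start. This is the gene start for Itga8, Itga11 and Lamc1. For Itga1 it lies inside the gene bounds, which reach 48545336. Lamb2, the laminin gene that rose, had no entry, and 17 of the 22 genes had one. Capitals mark matches on either strand to any of 5 short motifs. The GC box was searched as the letters GGGCGG, and the CAAT box, a common promoter element, as the letters CCAAT. The box bound by the TATA-binding protein was searched as the letters TATAAA. The AP-1 site, where Fos and Jun bind, was searched as the letters TGANTCA, and the TEAD site, read by the partners of YAP, as the letters GGAATG.
Itga8, chr17:80410584-80410883, minus strand: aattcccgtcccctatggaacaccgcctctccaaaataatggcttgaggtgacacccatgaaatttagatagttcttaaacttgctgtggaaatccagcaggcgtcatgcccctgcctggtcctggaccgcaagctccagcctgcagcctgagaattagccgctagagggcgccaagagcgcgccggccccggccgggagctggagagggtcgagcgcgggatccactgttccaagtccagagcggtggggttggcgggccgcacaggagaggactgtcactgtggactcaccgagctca
Itga11, chr8:72041182-72041481, plus strand: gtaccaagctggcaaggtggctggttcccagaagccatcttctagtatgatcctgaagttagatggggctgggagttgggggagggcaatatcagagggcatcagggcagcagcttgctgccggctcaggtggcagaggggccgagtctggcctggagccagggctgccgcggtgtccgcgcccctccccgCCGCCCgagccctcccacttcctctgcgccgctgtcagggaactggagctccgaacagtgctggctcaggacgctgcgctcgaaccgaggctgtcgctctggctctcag
Itga1, chr2:48545234-48545533, minus strand: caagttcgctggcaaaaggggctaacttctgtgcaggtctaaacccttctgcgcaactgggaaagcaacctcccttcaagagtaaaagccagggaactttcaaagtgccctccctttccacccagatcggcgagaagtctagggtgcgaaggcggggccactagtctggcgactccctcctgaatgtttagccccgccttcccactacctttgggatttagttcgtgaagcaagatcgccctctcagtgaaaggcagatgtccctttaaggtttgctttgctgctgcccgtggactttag
Lamc1, chr13:68051937-68052236, minus strand: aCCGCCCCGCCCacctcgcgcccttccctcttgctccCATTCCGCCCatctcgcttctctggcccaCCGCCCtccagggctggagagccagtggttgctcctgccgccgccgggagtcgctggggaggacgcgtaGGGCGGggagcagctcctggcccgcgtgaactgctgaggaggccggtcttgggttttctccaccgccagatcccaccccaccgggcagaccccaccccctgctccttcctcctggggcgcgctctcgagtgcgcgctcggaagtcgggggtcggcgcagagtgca
The integrin promoters held no match except 1 GC box in Itga11. The Lamc1 window held 5 GC boxes and 1 TEAD site that overlaps one of them. Of 33469 rat promoters of this length, 33.1% held a GC box, 37.5% a CAAT box, 14.2% a TATA box, 7.33% an AP-1 site and 14.2% a TEAD site. GC content was 60.3% for Itga8, 65.7% for Itga11, 53.7% for Itga1 and 71.7% for Lamc1, with a median of 51.7% over all promoters.

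To follow these genes over culture, day 28 constructs were compared with day 2 constructs. Integrin chains were broadly higher on day 28, among them the collagen receptors Itga1 and Itga11, the RGD receptors Itga8 and Itga5 and the beta chains Itgb1, Itgb4, Itgb5 and Itgb6, while the laminin chains went opposite ways, Lamb2 up and Lamc1 down. Of 14 genes tested, 10 were higher and 1 was lower (limma, adjusted p under 0.05), against 20.0% of all 11583 probes called higher, 34.6% called lower and 54.6% either. Of 11 integrin chains 9 rose and 2, Itga7 and Itgb7, did not pass the test. The median log2 fold change was 1.10 over the 14 genes and -0.17 over all probes. Of the 10 genes that were higher, 5 (Itga11, Itga8, Itga4, Itgb6 and Lamb2) were detected in fewer than 3 day 2 constructs and passed the detection filter only with constructs of days 15 and 28, so their difference from day 2 follows in part from the filter, and the count and median are a description. By the F test over the 3 days 11 of the 14 genes differed, against 57.8% of all probes.

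**Figure D1:**
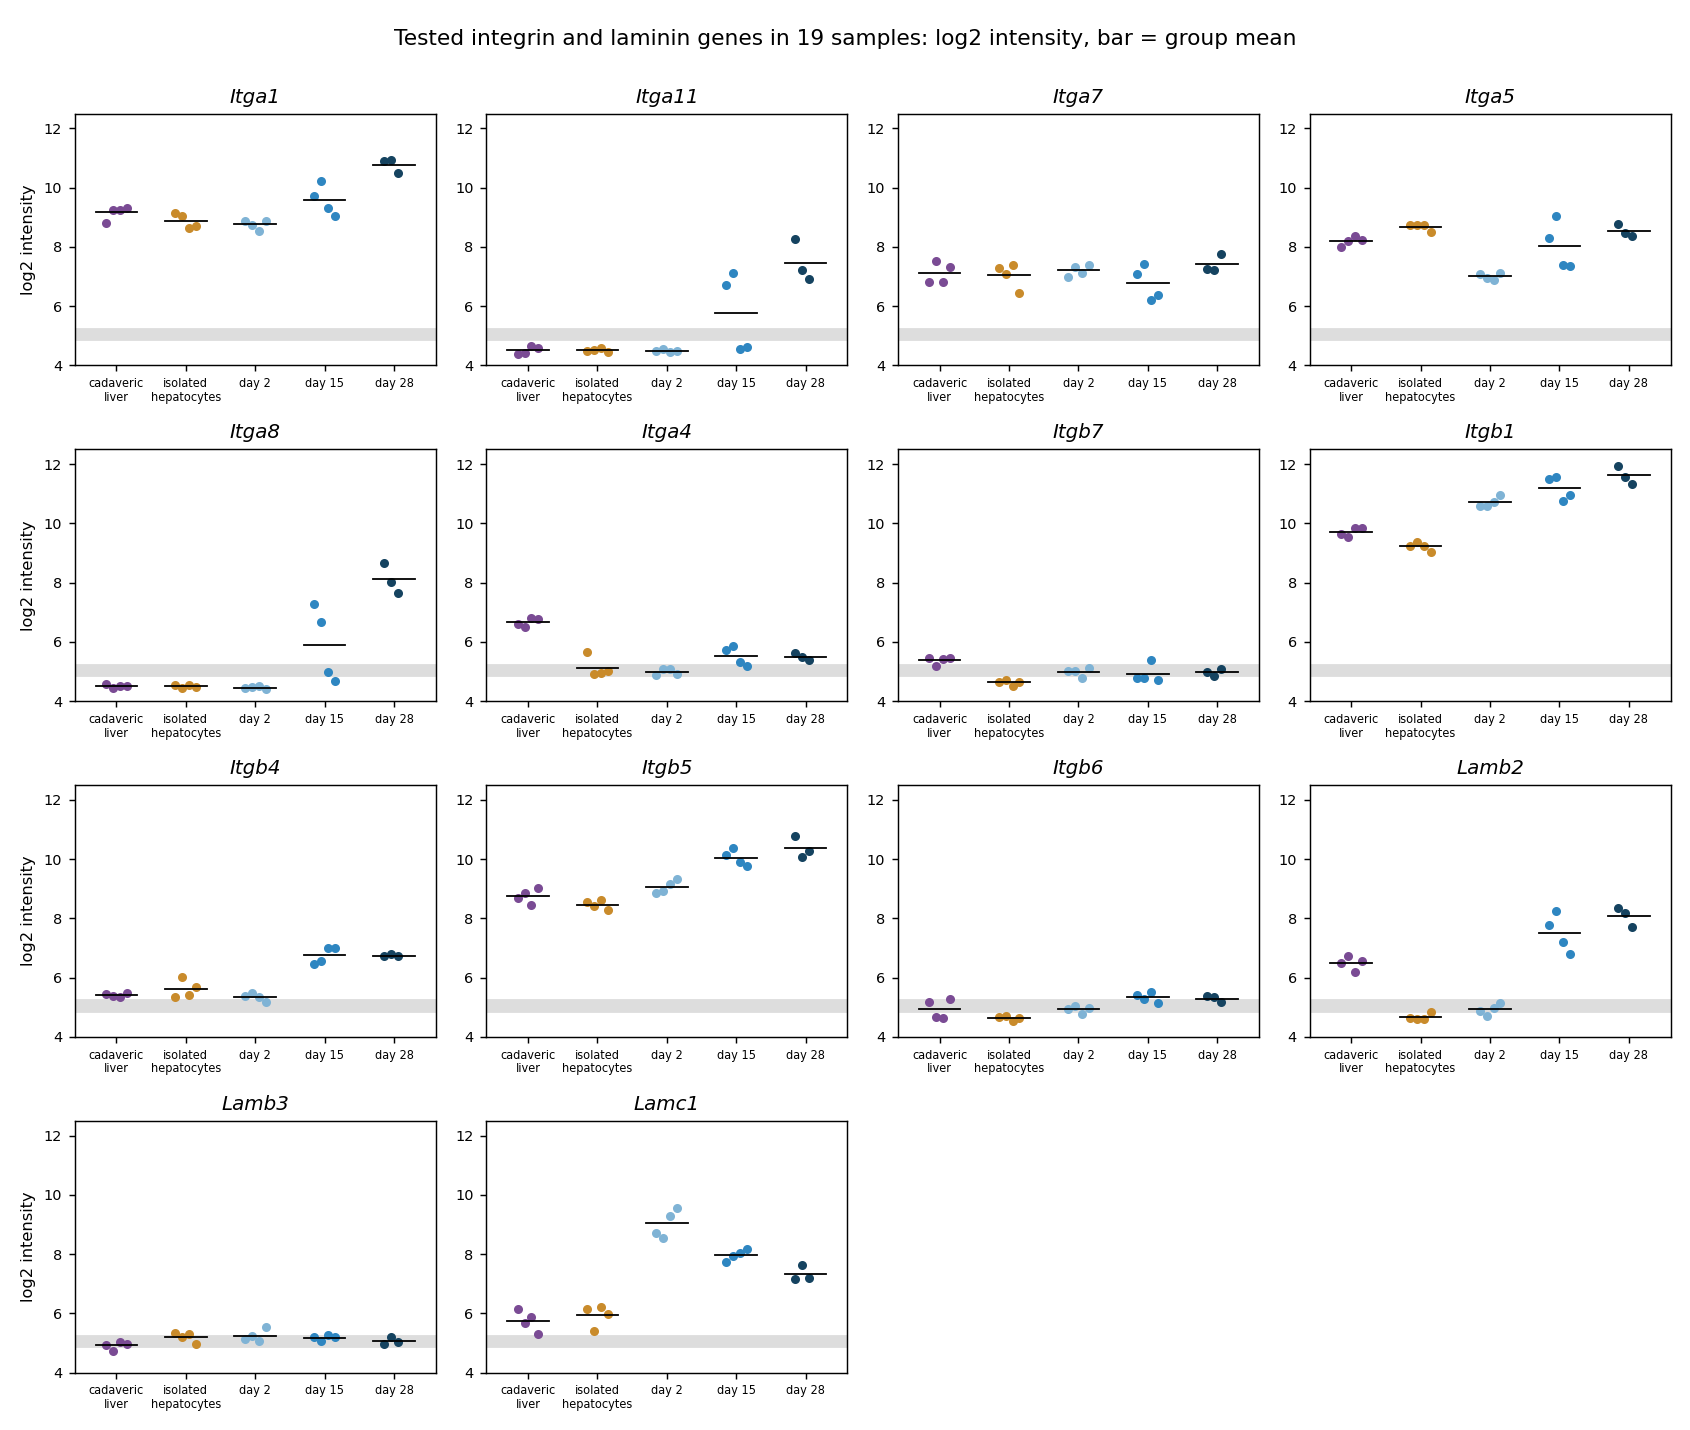
Log2 intensity (vertical axis) of the 14 tested genes in each sample of cadaveric liver, isolated hepatocytes and constructs of days 2, 15 and 28. Points are samples, with technical duplicate arrays averaged, bars are group means, and the grey band spans 4.86 to 5.23, the lowest values called detected on the arrays. Itga8, Itga11 and Lamb2 lie in or below the band in day 2 constructs and above it in all day 28 constructs, and Lamc1 is highest on day 2.

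The other comparisons placed these changes in time. In isolated hepatocytes against cadaveric liver, which compares purified cells with the organ they come from, 0 of 14 genes were higher and 4 were lower, with 11.5% of all 12516 probes called higher, 9.95% lower and 21.4% either. In day 2 constructs against isolated hepatocytes, 4 were higher and 1 was lower, with 31.1% of probes higher, 24.3% lower and 55.5% either. From day 2 to day 15, 8 were higher and 1 was lower on day 15, with 19.3% of probes higher, 28.8% lower and 48.1% either. Of the higher genes, Itga8, Itga4, Itgb6 and Lamb2 passed the detection filter only with the later constructs, so this count follows in part from the filter. From day 15 to day 28, 2 were higher and 0 lower on day 28, with 4.08% of probes higher, 4.50% lower and 8.58% either. That count ranged over 0 to 6 when 1 replicate was left out. Pairs of day 15 constructs, chosen after seeing the data, were also left out. The count was then 7 without constructs 1 and 2 (20.3% of probes) and 0 without constructs 3 and 4 (2.42% of probes). In day 28 constructs against cadaveric liver, 9 were higher and 2 were lower, with 27.0% of probes higher, 25.7% lower and 52.7% either. Of the higher genes, Itga8 and Itga11 were detected on no array outside the constructs of days 15 and 28. They passed the detection filter only with those constructs, so this count too follows in part from the filter. The comparisons share samples and were not set against each other.

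Among the collagen-binding alpha chains, Itga1, found on stellate and sinusoidal cells and on hepatocytes, was well above background in all samples. Its log2 levels were 10.90, 10.92 and 10.49 in the day 28 constructs, 9.73, 10.23, 9.31 and 9.05 in those of day 15, and 8.87, 8.75, 8.52 and 8.88 in those of day 2. Isolated hepatocytes had 9.14, 9.05, 8.64 and 8.72, and cadaveric livers 8.81, 9.26, 9.25 and 9.33. Every day 28 construct exceeded every sample of each other group. Itga1 rose by 2.01 ± 0.24 (SE) on the log2 scale, 4.04-fold, on day 28 relative to day 2 (adjusted p = 4.2e-05), and by 1.61 ± 0.22 relative to cadaveric liver (adjusted p = 5.9e-06). Both steps passed the test, with 0.82 ± 0.22 higher on day 15 than on day 2 (adjusted p = 0.0095) and 1.19 ± 0.24 higher on day 28 than on day 15 (adjusted p = 0.015). The later step was lost without day 28 construct 1 (adjusted p = 0.064) or construct 2 (adjusted p = 0.051). It was also lost without day 15 constructs 3 and 4 (0.79, adjusted p = 0.067), a pair chosen after seeing the data.

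Itga11, a collagen receptor of fibroblasts and myofibroblasts, was detected on 0 of 4 arrays of cadaveric liver, 0 of 4 of isolated hepatocytes and 0 of 6 of day 2 constructs. Its levels on day 28 were 8.27, 7.22 and 6.92, and on day 15 they were 6.72, 7.12, 4.56 and 4.64, of which the last pair were undetected. Day 2 constructs had 4.48, 4.57, 4.47 and 4.49. Itga11 on day 28 exceeded day 2 by at least 5.44-fold (adjusted p = 0.0012) and cadaveric liver by at least 5.55-fold (adjusted p = 3.0e-05), a bound set by the detection level of each array. On day 15 only constructs 1 and 2 carried it, and the difference from day 2 did not pass the test (adjusted p = 0.073). Nor did day 28 against day 15 (adjusted p = 0.094).

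The remaining collagen-binding chains stayed near background. Itga2 was detected on 2 of 5 arrays on day 15 and 1 of 5 on day 28, at 4.36 to 5.08 over all samples. Itga10 was detected on 0 of 24 arrays. Itga2 and Itga1 lie side by side on chromosome 2, 24671 bases apart in GRCr8 (48253412 to 48354509 and 48379181 to 48545336), yet only the Itga1 probe was detected on all arrays.

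Of the RGD-binding alpha chains, Itga8, which pairs with beta 1, binds nephronectin and marks mesenchymal cells such as stellate cells, was measured above background only in constructs of days 15 and 28. It was undetected on every array of cadaveric liver, isolated hepatocytes and day 2 constructs, where it measured 4.40 to 4.59 throughout. On day 28 it reached 8.67, 8.03 and 7.65. On day 15 it was 7.26 and 6.68 in constructs 1 and 2, 4.98 in construct 3, where it was just detected, and 4.68 in construct 4, where it was not. Day 28 levels were at least 8.53-fold those of day 2 (adjusted p = 1.6e-04) and at least 8.71-fold those of cadaveric liver (adjusted p = 8.3e-07). On day 15 it was at least 1.83-fold above day 2 (adjusted p = 0.029), and this call was lost without either of day 15 constructs 1 and 2 (adjusted p = 0.074 and 0.081) or any 1 of the day 2 constructs (adjusted p = 0.055 to 0.060). It was 2.22 ± 0.53 higher on the log2 scale on day 28 than on day 15 (adjusted p = 0.028), which was lost without day 15 construct 3 or 4 or any 1 of the day 28 constructs (adjusted p = 0.054 to 0.12).

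Itga5, the alpha chain of the classic fibronectin receptor, dipped and recovered. Its levels were 8.75, 8.74, 8.73 and 8.51 in isolated hepatocytes, 7.10, 6.94, 6.89 and 7.12 on day 2, 8.30, 9.04, 7.40 and 7.34 on day 15, and 8.76, 8.48 and 8.36 on day 28. All day 2 values were the lowest of any group. Itga5 fell by 1.67 ± 0.25 on the log2 scale in day 2 constructs against isolated hepatocytes (adjusted p = 1.8e-05), a 3.18-fold decrease. It was 1.52 ± 0.33 higher on day 28 than on day 2 (adjusted p = 0.0025) and 1.01 ± 0.31 higher on day 15 than on day 2 (adjusted p = 0.019). The day 15 value dropped to 0.67 without day 15 construct 2, and the call was lost without construct 1 (0.91, adjusted p = 0.052). Cadaveric livers averaged 8.21 ± 0.15 (SD, n = 4) and reached 8.38, above the lowest day 28 construct, and the difference of 0.33 ± 0.27 did not pass the test (adjusted p = 0.34).

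Itga7, the only laminin-binding alpha chain with a probe and best known from muscle, passed the test in none of the 6 comparisons, with group means of 6.77 to 7.41 and day 15 constructs at 7.09, 7.42, 6.19 and 6.37. Its day 28 minus day 2 difference was 0.20 ± 0.27 (adjusted p = 0.54).

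**Figure D2:**
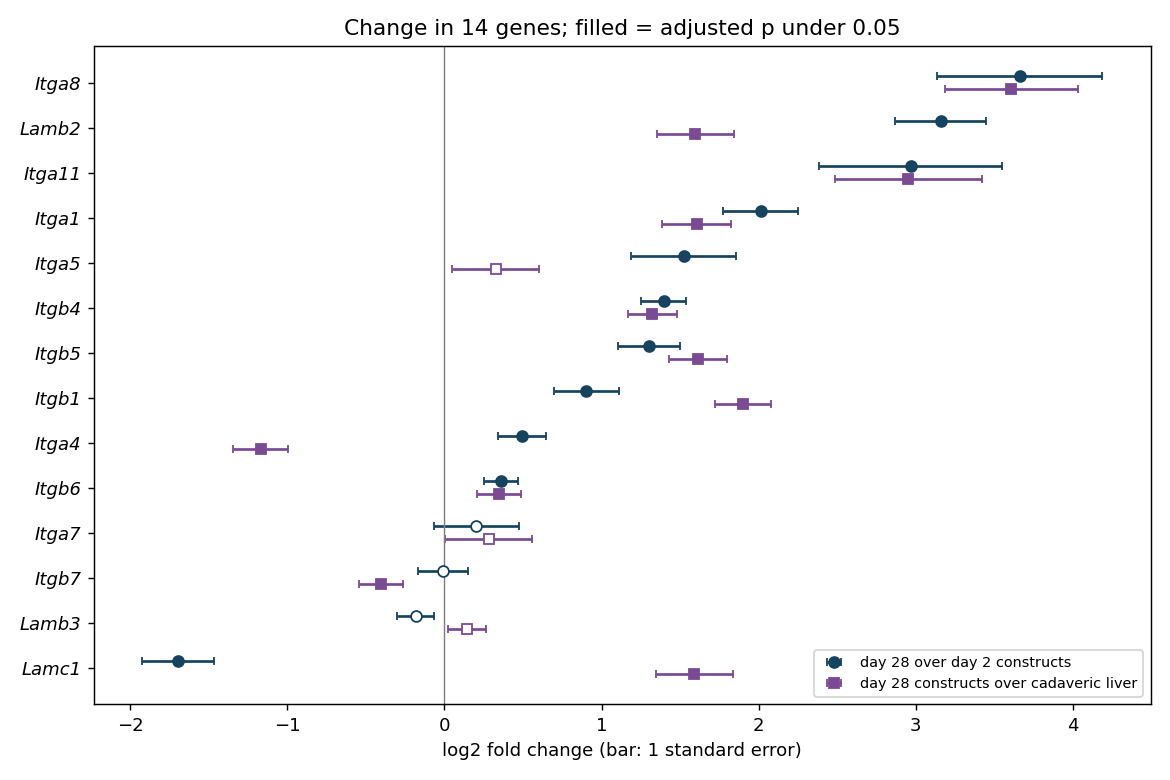
Fitted log2 fold changes (horizontal axis) of the 14 tested genes in day 28 constructs over day 2 constructs (circles) and over cadaveric liver (squares), with bars of 1 standard error and filled symbols for adjusted p under 0.05. Itga8 and Itga11 were undetected in day 2 constructs and cadaveric liver, so their points rest on background values there. Lamc1 and Itga4 lie on opposite sides of 0 in the 2 comparisons, and Itga5 is filled only over day 2.

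The matrix-binding beta chains were higher in late constructs, with 4 of 4 tested members (Itgb1, Itgb4, Itgb5 and Itgb6) rising on day 28 relative to day 2 and on day 28 relative to cadaveric liver. Over all probes, 20.0% were higher in the first of these comparisons and 27.0% in the second. The call of Itgb6 against cadaveric liver (0.35 ± 0.14, adjusted p = 0.047) was lost without background correction, with no detection filter, with only those groups in the fit, and without cadaveric liver 2 or 3 or day 28 construct 1 or 2. Itgb1, the common partner of most matrix-binding alpha chains, had levels of 11.95, 11.56 and 11.34 on day 28 and 10.57, 10.60, 10.73 and 10.94 on day 2. Isolated hepatocytes had 9.24, 9.39, 9.24 and 9.02, and cadaveric livers 9.65, 9.54, 9.85 and 9.83. The rise began early. Itgb1 was 1.49 ± 0.17 higher in day 2 constructs than in isolated hepatocytes, 2.81-fold (adjusted p = 4.6e-07), 0.90 ± 0.21 higher on day 28 than on day 2 (adjusted p = 0.0033), and 1.90 ± 0.18 higher on day 28 than in cadaveric liver, 3.73-fold (adjusted p = 6.2e-08). On day 15 its levels were 11.50, 11.56, 10.77 and 10.96, overlapping day 2, and the difference of 0.48 ± 0.19 did not pass the test (adjusted p = 0.056). Nor did day 28 minus day 15 (0.42 ± 0.21, adjusted p = 0.23). Itgb1 was lower in isolated hepatocytes than in cadaveric liver by a small margin (-0.49 ± 0.17, adjusted p = 0.044), a call lost without 3 of the 4 cadaveric livers (numbers 1, 3 and 4) or 3 of the 4 hepatocyte samples (numbers 1, 3 and 4), at adjusted p = 0.062 to 0.12.

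Itgb4, which pairs only with alpha 6 and anchors epithelial cells to laminin through hemidesmosomes, switched to a higher level between days 2 and 15. Its levels were 6.72, 6.79 and 6.72 on day 28, 6.45, 6.56, 7.01 and 6.99 on day 15, and 5.37, 5.49, 5.34 and 5.18 on day 2. No construct of days 15 or 28 overlapped any sample of another group, where isolated hepatocytes had 5.33 to 6.02 and cadaveric livers 5.35 to 5.50. It was 1.41 ± 0.13 higher on day 15 than on day 2 (adjusted p = 1.4e-05) and 1.40 ± 0.14 higher on day 28 than on day 2, 2.63-fold (adjusted p = 1.9e-05), whereas day 28 minus day 15 was -0.01 ± 0.14 (adjusted p = 0.97). Both arrays of day 2 construct 3 differed by 0.90 for this gene, the largest gap between duplicate arrays of any tested member.

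Itgb5, which forms the vitronectin receptor with alpha v, rose at every step up to day 15. Levels were 8.57, 8.41, 8.62 and 8.27 in isolated hepatocytes, 8.84, 8.92, 9.17 and 9.33 on day 2, 10.15, 10.37, 9.90 and 9.76 on day 15 and 10.79, 10.06 and 10.26 on day 28. Isolated hepatocytes and constructs of day 2 and day 15 did not overlap one another. Itgb5 was 0.60 ± 0.17 higher on day 2 than in isolated hepatocytes (adjusted p = 0.0058), 0.98 ± 0.18 higher on day 15 than on day 2 (adjusted p = 0.0011), 1.30 ± 0.20 higher on day 28 than on day 2 (adjusted p = 2.2e-04) and 1.61 ± 0.18 higher on day 28 than in cadaveric liver (adjusted p = 6.1e-07). With arrays scaled to a common median in place of quantile normalization, the first of these values was 1.19. Itgb6, an epithelial chain that also pairs with alpha v, moved little and close to background, at 5.37, 5.33 and 5.19 on day 28, 5.40, 5.29, 5.51 and 5.15 on day 15 and 4.95, 5.05, 4.78 and 4.97 on day 2. Itgb8 was detected on 1 of 24 arrays.

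Among the chains of blood cells, Itga4, the alpha chain of VLA-4, was highest in cadaveric liver. It was at 5.62, 5.48 and 5.38 in day 28 constructs, 5.65, 4.90, 4.94 and 5.03 in isolated hepatocytes, and 6.59, 6.49, 6.80 and 6.78 in cadaveric livers. Itga4 was lower in isolated hepatocytes than in cadaveric liver (log2 difference -1.53 ± 0.16, adjusted p = 9.3e-07) and fell by 1.17 ± 0.17 in day 28 constructs against cadaveric liver (adjusted p = 1.6e-05). It was 5.72, 5.86, 5.32 and 5.20 in day 15 constructs and 4.89, 5.10, 5.08 and 4.93 in day 2 constructs, which did not overlap, a difference of 0.52 ± 0.14 (adjusted p = 0.0099). Itgb7, its partner on gut-homing lymphocytes, was detected on no array of isolated hepatocytes, where it was at least 1.16-fold lower (adjusted p = 3.3e-04) than in cadaveric livers at 5.46, 5.18, 5.41 and 5.47. It was also lower in day 28 constructs than in cadaveric liver (-0.40 ± 0.14, adjusted p = 0.022) and higher in day 2 constructs than in isolated hepatocytes, which were at background (means 4.99 and 4.63, adjusted p = 0.027). The day 28 call was lost without cadaveric liver 1 or 4 or day 28 construct 1 or 2 (adjusted p = 0.050 to 0.090), and the day 2 call without hepatocyte sample 3 or day 2 construct 1, 2 or 4 (adjusted p = 0.056 to 0.074). Itgal, the alpha chain of LFA-1, was detected in 1 of 4 cadaveric livers alone, and the myeloid chains Itgam and Itgad on 0 of 24 arrays.

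Other leukocyte markers were highest in cadaveric liver too. Their mean log2 level (4 of 7 markers with a probe) was 4.52 to 4.59 in day 28 constructs, 4.59 to 4.73 in isolated hepatocytes and 5.38 to 5.91 in cadaveric livers. Ptprc, Cd3d and Nkg7 were undetected in hepatocytes and constructs. Cd3e, the remaining marker, was detected on 3 of 4 arrays of cadaveric liver and 1 of 4 of hepatocytes. In constructs this was 5 of 6 arrays on day 2, 4 of 5 on day 15 and 2 of 5 on day 28. Its mean was 5.25 in cadaveric liver, against 5.04 in hepatocytes (adjusted p = 0.23) and 4.91 on day 28 (adjusted p = 0.032). Macrophage markers (6 of 9 with a probe) averaged 5.19 to 6.50 on day 28 and 8.80 to 9.74 in cadaveric livers. Their part in the Itga4 and Itgb7 differences was not tested. In RNA from whole samples, fewer cells of a type and less RNA per cell cannot be told apart.

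The laminin genes moved apart. Lamb2, the beta 2 chain of vessel and synaptic basement membranes, had levels of 8.37, 8.18 and 7.72 on day 28, 7.77, 8.24, 7.21 and 6.78 on day 15 and 4.86, 4.72, 4.99 and 5.14 on day 2. Isolated hepatocytes had 4.65, 4.59, 4.61 and 4.83, where it was detected on 0 of 4 arrays, and cadaveric livers 6.49, 6.72, 6.20 and 6.55. The hepatocytes were thus at background and every construct of days 15 and 28 lay above every cadaveric liver. Lamb2 was at least 2.50-fold lower in isolated hepatocytes than in cadaveric liver (adjusted p = 7.9e-06). It was 2.57 ± 0.27 higher on the log2 scale on day 15 than on day 2 (adjusted p = 2.6e-05), 3.16 ± 0.29 higher on day 28 than on day 2, 8.93-fold (adjusted p = 8.7e-06), and 1.60 ± 0.24 higher on day 28 than in cadaveric liver, 3.02-fold (adjusted p = 2.2e-05). The step from day 15 to day 28, 0.58 ± 0.29, did not pass the test (adjusted p = 0.235). On day 2 it was detected on 2 of 6 arrays, so the fold over day 2 rests partly on values at background, and the gene passed the detection filter only with the later constructs.

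Lamc1, the gamma 1 chain present in most laminin trimers, showed the opposite course. Levels were 6.15, 5.39, 6.21 and 5.97 in isolated hepatocytes, 8.72, 8.56, 9.30 and 9.56 on day 2, 7.73, 7.95, 8.04 and 8.18 on day 15, and 7.17, 7.64 and 7.20 on day 28. Each of these groups was separate from the next. Lamc1 was 3.11 ± 0.23 higher in day 2 constructs than in isolated hepatocytes, 8.61-fold (adjusted p = 1.4e-09). It fell by 1.06 ± 0.21 on day 15 relative to day 2 (adjusted p = 0.0017) and by 1.70 ± 0.23 on day 28 relative to day 2, 3.25-fold (adjusted p = 1.0e-04). The step from day 15 to day 28, -0.64 ± 0.23, did not pass the test (adjusted p = 0.11). Day 28 constructs remained 1.59 ± 0.24 above cadaveric livers (adjusted p = 2.2e-05), which had 6.14, 5.67, 5.87 and 5.31. Lamb3, the beta chain of an epithelial laminin, passed the test in none of the 6 comparisons, with group means of 4.92 to 5.24 and day 15 constructs at 5.20, 5.05, 5.26 and 5.21. Lama1 and Lamc3 were detected on 0 of 24 arrays.

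The rises were uneven among the day 15 constructs. For 9 of 14 genes (Itga1, Itga11, Itga7, Itga5, Itga8, Itga4, Itgb1, Itgb5 and Lamb2) constructs 1 and 2 had the highest values, which held for 20.6% of all probes. For 3 (Itgb4, Lamb3 and Lamc1) they had the lowest, which held for 34.4% of all probes. The gap between the highest and the lowest construct was 2.58 for Itga8 and 2.56 for Itga11 but 0.21 for Lamb3. Over all probes, the mean distance to the day 28 constructs was 0.44 and 0.43 for constructs 1 and 2 and 0.67 and 0.73 for constructs 3 and 4. Stellate cell and fibroblast markers (7 of 10 with a probe) split in the same order, with mean log2 levels of 9.66 and 10.23 in constructs 1 and 2 and 7.95 and 7.71 in constructs 3 and 4. Cholangiocyte markers did not, with construct 3 highest at 8.09 and construct 1 lowest at 7.68. Without constructs 3 and 4, 11 of 13 genes differed between day 15 and day 2, with 48.1% of all 11301 probes in that fit. Without constructs 1 and 2, 6 of 14 did, with 37.6% of 11354 probes, and Itga8, Itga1, Itga5 and Itga4 were no longer among them (adjusted p = 0.23, 0.063, 0.056 and 0.11). The pairs were chosen after seeing the data, and each of these fits had fewer day 15 constructs. As constructs 1 and 2 held the highest values of these genes, the lost calls follow in part from that choice.

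**Figure D3:**
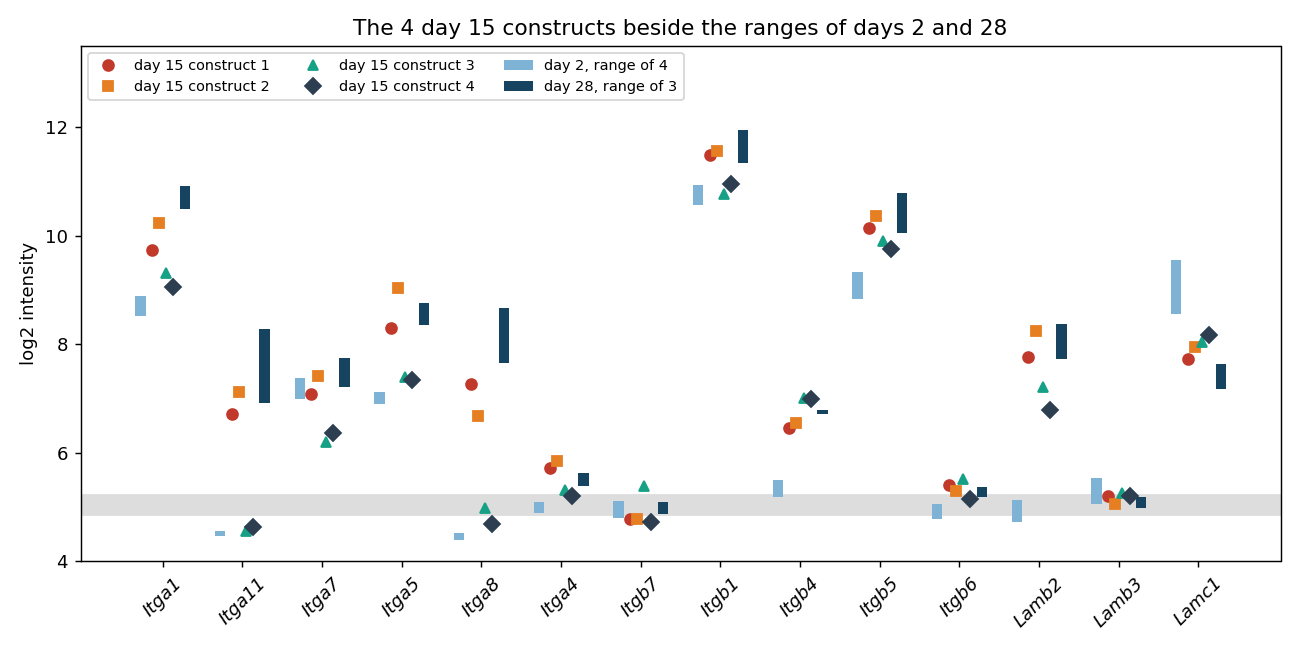
Log2 intensity (vertical axis) of the 14 tested genes in the 4 day 15 constructs (symbols), with the range of the 4 day 2 constructs (light bars) and of the 3 day 28 constructs (dark bars). The grey band spans the detection levels of the arrays. For Itga11, constructs 1 and 2 (6.72 and 7.12) sit near the day 28 range and constructs 3 and 4 (4.56 and 4.64) near that of day 2, while all 4 constructs of Itgb4 lie well above day 2.

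Genes that act beside the integrins and laminins were read from 3 further lists. The adhesion complex links integrin tails to actin and to kinases. Of 26 such genes 18 were tested, and on day 28 relative to day 2, 5 rose, 1 fell and 12 did not pass the test (median log2 fold change 0.19), where 20.0% of all probes rose and 34.6% fell. The same shares of all probes apply to the next lists. Fhl2, a LIM protein that binds integrin tails, rose by 3.34 ± 0.61 (adjusted p = 7.5e-04), with 10.22, 9.94 and 9.44 on day 28 and 6.02, 6.62, 6.83 and 6.64 on day 2. Tns1, a tensin that couples integrins to actin, rose by 2.23 ± 0.35 (adjusted p = 3.0e-04). Fermt3, the kindlin of blood cells, was undetected on day 2, exceeded by at least 3.08-fold on day 28 (adjusted p = 2.1e-04), and lower on day 28 than in cadaveric livers (means 6.65 and 7.48, adjusted p = 0.022). Crk, an adaptor recruited by phosphorylated paxillin and p130Cas, fell by 0.85 ± 0.09 (adjusted p = 2.1e-05). It was 1.22 ± 0.18 higher on day 2 than in isolated hepatocytes (adjusted p = 1.5e-05). On day 28 it was 0.77 ± 0.20 higher than in cadaveric liver (adjusted p = 0.0031). Core members such as Ilk, Parva, Ptk2, Pxn and Vcl did not pass the test from day 2 to day 28. Their values were -0.18, 0.17, 0.01, 0.10 and -0.16. In day 2 constructs against isolated hepatocytes, 9 of the 18 genes were higher and 3 lower (31.1% and 24.3% of all probes). Ilk and Parva were among the higher (1.14 ± 0.13 and 1.23 ± 0.17) and Vcl among the lower (-0.47 ± 0.12). On day 28 against cadaveric liver, 10 were higher and 3 lower (27.0% and 25.7% of all probes). Pxn and Vcl lay near background, with means of 5.10 and 4.98 on day 2.

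Of 10 other receptors for laminin and matrix, all tested, 5 rose, 2 fell and 3 did not pass the test from day 2 to day 28. Ddr1, a collagen-activated receptor kinase of epithelia, rose by 1.57 ± 0.17 (adjusted p = 2.4e-05). It was undetected on every array of cadaveric liver and isolated hepatocytes and measured 7.54, 7.11 and 7.32 on day 28 and 5.82, 5.66, 5.57 and 5.95 on day 2. Cd44, the hyaluronan receptor, rose by 1.51 ± 0.24 (adjusted p = 3.5e-04). Sdc1, the main syndecan of hepatocytes, rose by 1.10 ± 0.17 (adjusted p = 3.1e-04) but averaged 8.95 ± 0.41 on day 28, 7.85 ± 0.17 on day 2 and 9.63 ± 0.17 in cadaveric liver (SD). Rpsa, the ribosomal protein also known as the laminin receptor precursor, fell by 0.34 ± 0.09 (adjusted p = 0.0068).

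Of 21 other basement membrane genes 8 were tested, of which 4 rose, 1 fell and 3 did not pass the test. Col4a1, a chain of collagen IV, was 12.35, 11.89 and 11.61 on day 28, 11.22, 11.73, 9.40 and 8.87 on day 15, and 5.86, 5.91, 4.91 and 5.05 on day 2. It rose by 6.51 ± 0.60 on day 28 relative to day 2 (adjusted p = 8.8e-06), and its day 15 constructs 1 and 2 lay above constructs 3 and 4, as for Itga8. Smoc2, a calcium-binding matricellular protein, on day 28 exceeded day 2, where it was undetected, by at least 10.7-fold (adjusted p = 9.4e-05). Like Fermt3, it passed the detection filter only with the later constructs, where it was high. Fbln1, the fibulin 1 gene, rose by 1.25 ± 0.25 (adjusted p = 0.0016), but was lower on day 28 than on day 15 (-0.93 ± 0.25, adjusted p = 0.0465). Col18a1, which hepatocytes express, fell by 0.67 ± 0.12 on day 28 relative to day 2 (adjusted p = 5.1e-04).

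**Figure D4:**
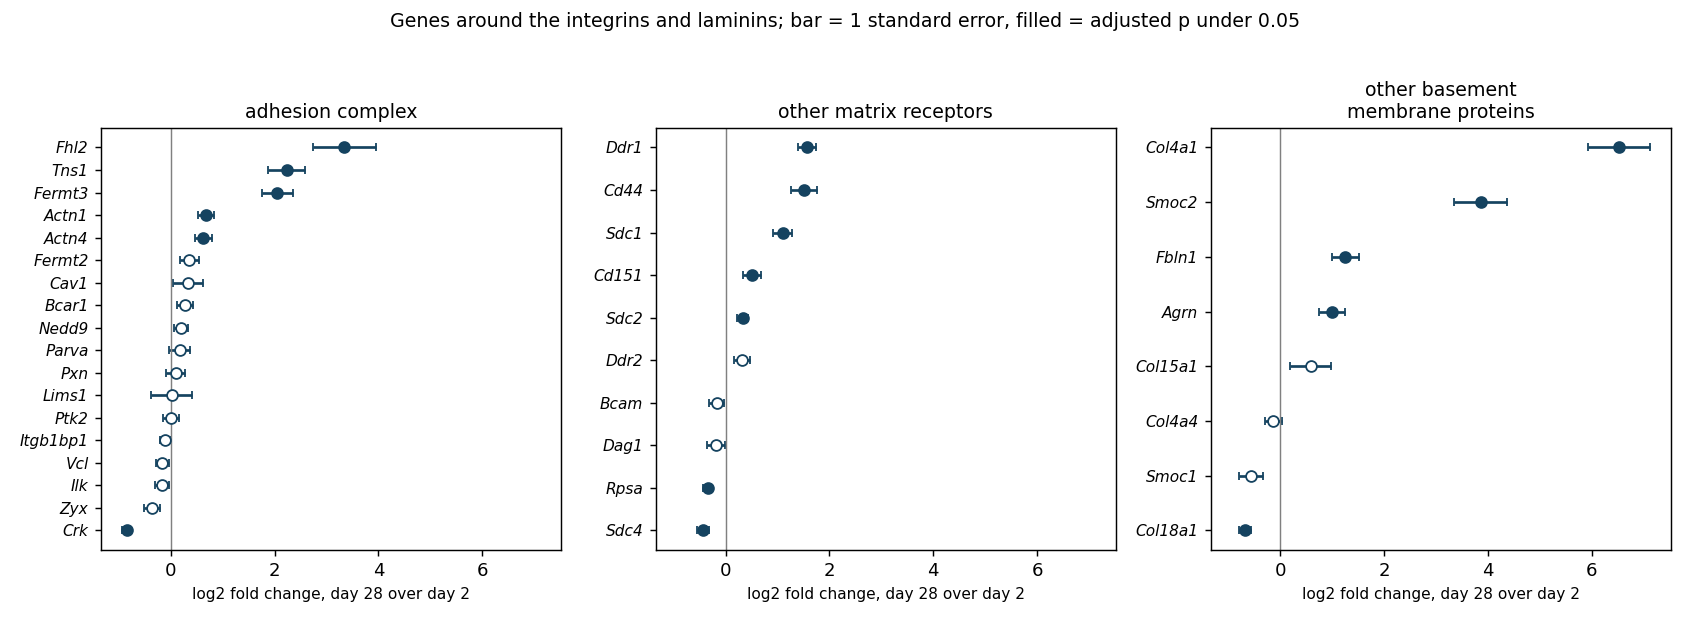
Fitted log2 fold changes (horizontal axis, with 1 standard error) of the tested genes of 3 lists in day 28 over day 2 constructs, filled where adjusted p was under 0.05. Col4a1 at 6.51 and Smoc2 lie farthest right, most adhesion complex genes lie near 0, and Fermt3 and Smoc2 rest on background values on day 2.

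Marker genes of other cells moved over the same interval. Stellate cell and fibroblast markers averaged 10.4 to 10.7 on day 28, 7.71 to 10.2 on day 15 and 5.24 to 5.66 on day 2, with 5.54 to 5.87 in isolated hepatocytes and 7.97 to 8.93 in cadaveric liver. All 7 rose on day 28 relative to day 2. Over all probes 20.0% rose and 34.6% fell in that comparison, to which every marker count below belongs. Col1a1, Col3a1 and Dcn were undetected on day 2. Like Des, they passed the detection filter only with the later constructs, so these rises follow in part from the filter. Cholangiocyte markers (4 of 6 with a probe) averaged 7.54 to 7.91 on day 28 and 5.92 to 5.95 on day 2, where Krt7 and Krt19 were undetected, and 4 of 4 rose. Krt7, Krt19 and Cldn4 likewise passed the filter only with the later constructs. Endothelial markers (6 of 10 with a probe) averaged 4.74 to 4.88 on day 28 and 4.54 to 4.71 on day 2, with Cdh5 and Vwf undetected in both, and 6.98 to 7.07 in cadaveric liver. Flt1, the endothelial marker that passed the filter over the constructs, was higher on day 28 than on day 2 (means 5.54 and 5.01, adjusted p = 0.0020). Of 3 macrophage markers tested, 2 were higher on day 28 than on day 2, Vsig4 (means 7.69 and 5.90, adjusted p = 0.037) and C1qa (6.10 and 5.19, adjusted p = 0.041), while C1qb (7.19 and 6.39) did not pass the test. The platelet marker Pf4, undetected on day 2, averaged 5.69 on day 28 (adjusted p = 0.017). Flt1 and Pf4 also passed the detection filter only with the later constructs. Hepatocyte markers averaged 11.57 to 11.95 on day 28 and 12.04 to 12.30 on day 2. Of 6 tested, 1 (Ttr) was higher on day 28 than on day 2 and 3 (Tat, Asgr1 and Hnf4a) were lower. The part of these marker changes in the results for integrins, laminins and Fermt3 was not tested.

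**Figure D5:**
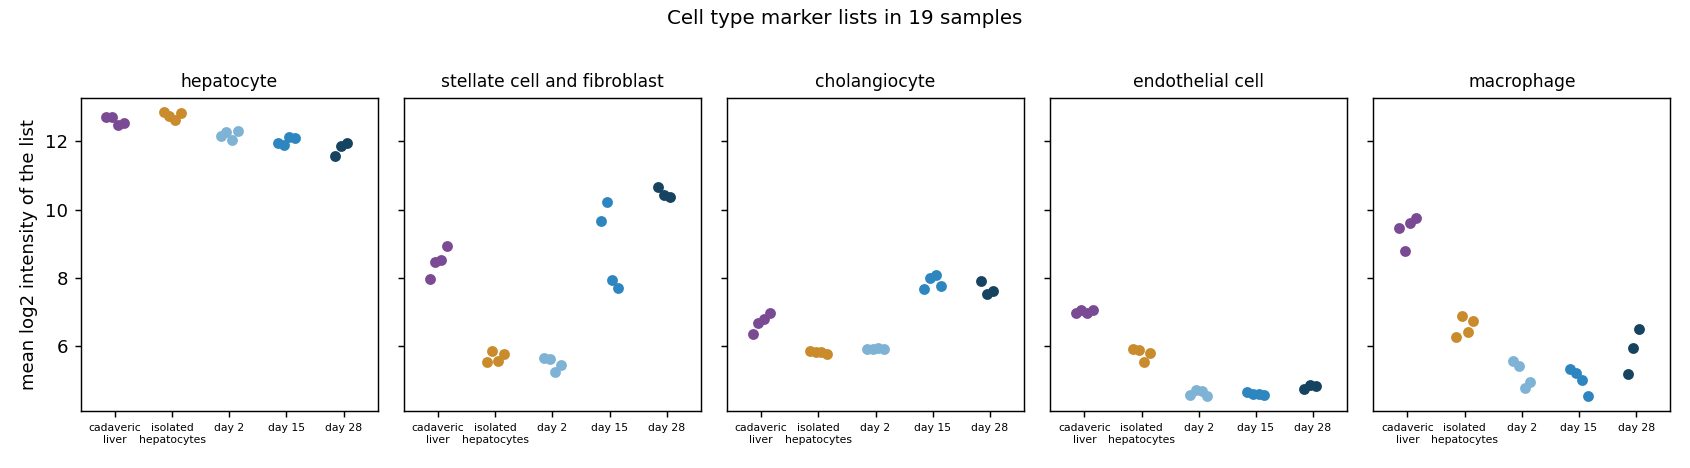
Mean log2 intensity (vertical axis) of 5 lists of cell type markers in each sample of cadaveric liver, isolated hepatocytes and constructs of days 2, 15 and 28, 1 point a sample. Stellate cell and fibroblast markers reach 10.4 to 10.7 on day 28 and divide the day 15 constructs, and cholangiocyte markers are raised in all constructs of days 15 and 28. Hepatocyte markers range from 11.6 to 12.9 and are lower in every day 28 construct than in every day 2 construct.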

How the data were processed

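RNA was hybridized to Illumina RatRef-12 BeadChips, giving 24 arrays from 19 samples, and technical duplicate arrays of 5 constructs were averaged. The authors deposited linear bead intensity values with a detection p-value per probe, and log2 values made with limma by background correction and quantile normalization (version not given in the sources used here). A further copy of the log2 values, under column names that match no label, was not used. The intensities were processed again with the neqc method (R 4.3.3, limma 3.58.1, offset 16, 842 control probes left out) and lay within 0.0063 of the deposited log2 values, by which the columns were assigned to sample records. Replicate numbers differed on 14 arrays, always within a group.

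Probes with detection p under 0.05 in at least 3 replicates were kept, 11583 over the constructs and 12516 over 5 groups. Of 22523 probes 13793 carried 1 gene symbol, updated to RefSeq GRCr8 through Entrez ID (13752) or accession (5). Linear models were fitted over the 11 constructs or all 19 samples with moderated statistics in limma and Benjamini-Hochberg adjustment over every probe. The fit over construct days mirrors the one-way analysis over time points in the methods of the study. Levels are log2 intensities and are not comparable between probes. The number of arrays limits the precision.

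Where a gene was undetected on every array of a group, a lower bound is given instead of a fold, taking for each array of that group the higher of the lowest detected value and the probe's own. Named are members called with at least a 2-fold change from day 2 to day 28, in other comparisons the 6 largest called changes and the best call of each role, and the 4 best calls of each further list. Other values illustrate the counts. The members and lists were chosen with earlier results of these data known. The fit was tested on simulated data, for day 28 against day 2 and for day 28 against cadaveric liver. It recovered 36% and 52% of 1.5-fold changes and 90% and 92% of 2-fold changes. A gene that did not pass the test may therefore still have changed modestly. Shared replicate numbers were not treated as pairs. Of 36 same-numbered pairs, 6 correlated above 0.1 in their deviations from group means (-0.24 to 0.26). Because replicate numbers differ between the sources on 14 arrays, these correlations cannot show whether samples shared an animal.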

Additional observations from a re-analysis of the deposited data

Results flagged for a closer look

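In 56 groups of 4 samples of the tested genes, 3 held a sample whose gap to the nearest other passed Dixon's critical value, and chance alone flags about 1 group in 20. Cadaveric liver 1 had an Itga1 level of 8.81, with the other cadaveric livers at 9.25 to 9.33. Hepatocyte sample 4 had an Itga5 level of 8.51, with the others at 8.73 to 8.75. Day 15 construct 3 had an Itgb7 level of 5.39, with the other day 15 constructs at 4.72 to 4.78.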

How the results depend on the processing

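None of 36 named fold changes reversed in 609 alternative values, 567 of which stayed past the threshold and 42 did not. The alternatives were the deposited log2 values, no background correction, common median scaling, no or a stricter detection filter, 1 probe per gene, no technical duplicates, a replicate block, other samples in the fit, each replicate left out, and, chosen after seeing the data, pairs of day 15 constructs left out. A chip block was not run, since the headers name no chips. Only the count for day 28 minus day 15, 2 genes, moved by over 1.5 times. It was 1 with no detection filter (which also cost Itga8 its day 15 call, adjusted p = 0.067), 7 without day 15 constructs 1 and 2, and 0 without constructs 3 and 4. Leaving out 1 replicate gave 0 to 6 genes there, 3 to 5 in hepatocytes against cadaveric liver, 4 to 6 in day 2 constructs against hepatocytes, 7 to 11 on day 15 against day 2, 9 to 11 on day 28 against day 2, 9 to 11 on day 28 against cadaveric liver and 11 to 12 in the F test. With the replicate block, the counts in the same order were 2, 3, 5, 10, 11, 11 and 11, and of the named calls Itgb1 in hepatocytes against cadaveric liver was lost (adjusted p = 0.059). Without background correction 18 named log2 fold changes were smaller by over 1.5 times, such as Itga8 and Itga11 on day 28 against day 2 (2.25 and 1.70), Lamb2 (1.92) and Itgb4 (0.74). Common median scaling moved the median of all probes to 0.23 in day 2 constructs against hepatocytes and 0.24 in day 28 constructs against cadaveric liver (0.02 and -0.02 as reported), and calls higher to 76.6% and 74.3% (56.1% and 51.3%), with 27.9% (53.6%) in hepatocytes against cadaveric liver. There Itgb7 lost both calls and Itga7 gained them, and Itga5 was called higher on day 28 than in cadaveric liver. The cause was not tested. Genes near the detection level, such as Itgb6, Itgb7 and Lamb3, allow only small measurable changes.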
